A study of Mus musculus with 10 samples.

Results

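The genes described here encode the proteins of the cytosolic ribosome. Members were all protein-coding genes whose mouse symbol starts with Rpl or Rps and whose product is a cytosolic ribosomal protein or a paralogue of one. Of 102 protein-coding genes with such symbols, 10 Rps6k kinases, 6 genes named as pseudogenes and Rps19bp1 were left out, which left 85 members of the 55357 genes in each table. They were 52 large-subunit (Rpl) and 33 small-subunit (Rps) genes, 8 of them paralogues of another member (Rpl3l, Rpl22l1, Rpl39l, Rps27l, Rps27rt, Rpl7l1, Rpl10l and Rpl36al). The rule uses no measured value.

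Poly(A) RNA was sequenced from 6 hearts and from 4 cultures of peritoneal macrophages. All hearts came from male Cd163-/- mice on a C57BL/6 background, which lack the macrophage scavenger receptor CD163, and had received saline (n = 3) or recombinant mouse interleukin-10 (IL-10, n = 3), an anti-inflammatory cytokine, at 50 µg/kg/day under the skin on listed days from day 0 to day 27 after transverse aortic constriction. That operation narrows the aorta and loads the left ventricle, and the mice were 8 weeks old at surgery. The label of each heart does not name its operation, and both heart groups lack CD163, so no heart with CD163 enters the comparison. The macrophages came from wild-type littermates (n = 2) or Cd163-/- mice (n = 2), were collected after thioglycolate, an irritant that draws macrophages into the peritoneum, were kept by adherence and were given 100 nM dexamethasone, a synthetic glucocorticoid, for 48 h in both groups. Cd163 itself had 352 and 205 counts in wild-type and 9 and 14 in knockout macrophages, 45, 47 and 57 in saline hearts and 37, 43 and 34 in IL-10 hearts, so the hearts' genotype rests on their labels. The labels do not say whether replicates were different mice or different dishes, so the spread behind each p-value may be technical.

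Each ribosome holds a single copy of nearly every ribosomal protein, with the acidic stalk proteins P1 and P2 as the known exception, and cells keep the mRNAs of these proteins at broadly balanced levels. The mRNAs start with a pyrimidine tract (the TOP motif), through which the kinase complex mTORC1 and the RNA-binding protein LARP1 set how much of each is translated, so mRNA abundance, the quantity measured here, is one of several layers of control. Striated muscle has a second form of the large-subunit protein RPL3, which reaches close to the peptidyl transferase centre. That form, RPL3L, is encoded by a gene used almost only in heart and skeletal muscle and takes the place of RPL3 in the ribosome. In skeletal muscle growing under load, Rpl3 is known to rise while Rpl3l falls.

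Rpl3 (ENSMUSG00000060036) lies on chromosome 15, 80077791 to 80091868, minus strand, and Rpl3l (ENSMUSG00000002500) on chromosome 17, 24727820 to 24736143, plus strand (GENCODE M21 on GRCm38, as for all positions given). Their annotated coding sequences were identical at 894 of 1207 aligned bases, or 74.07%, and the longest run they shared was 22 bases. The first 90 coding bases of each are shown because they make plain how reads of the pair can be told apart. Capitals mark the 21 bases that differ.
Rpl3: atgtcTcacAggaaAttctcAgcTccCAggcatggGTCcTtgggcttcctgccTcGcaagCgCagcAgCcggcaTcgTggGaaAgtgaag
Rpl3l: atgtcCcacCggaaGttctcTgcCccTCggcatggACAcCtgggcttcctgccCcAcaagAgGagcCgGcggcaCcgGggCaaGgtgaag

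Copies elsewhere in the genome bear on Rpl3 and not on Rpl3l. Of the 100-base windows of the Rpl3 transcript, 79.39% occur unchanged in transcripts of other genes, most ribosomal protein genes having processed pseudogenes, while no window of Rpl3l does. Across the members, 32 shared over 50% of their windows and 8 shared none. The genes named as pseudogenes of members took few counts: 2.16% to 2.27% of the members' own counts in hearts and 2.23% to 2.43% in macrophages. Copies under other names are not in these shares. Windows of Rpl3, for instance, occur in 7 other genes, while 2 genes are named as its pseudogenes. How reads matching several genes were counted is not known.

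In hearts given IL-10, Rpl3l was higher and Rpl3 lower than in saline hearts. The saline hearts held 995, 1387 and 1330 counts of Rpl3l, the IL-10 hearts 2280, 2045 and 1886. Every IL-10 heart exceeded every saline heart. Its level was 86.4 ± 14.2 counts per M counts (CPM, M for mega, on library sizes scaled by TMM; mean ± SD, n = 3) after saline and 146.7 ± 12.8 after IL-10, and the log2 fold change was 0.76 (SE 0.127; adjusted p = 0.00104, edgeR quasi-likelihood, Benjamini-Hochberg over all 13718 genes tested). For Rpl3 the saline hearts held 5345, 4666 and 7030 counts and the IL-10 hearts 3368, 3580 and 3556. Here every IL-10 heart lay below every saline heart, with little spread among the IL-10 hearts: 393.9 ± 55.2 against 248.5 ± 15.3 CPM. The log2 fold change was -0.66 (SE 0.125, edgeR adjusted p = 0.00241).

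**Figure D1:**
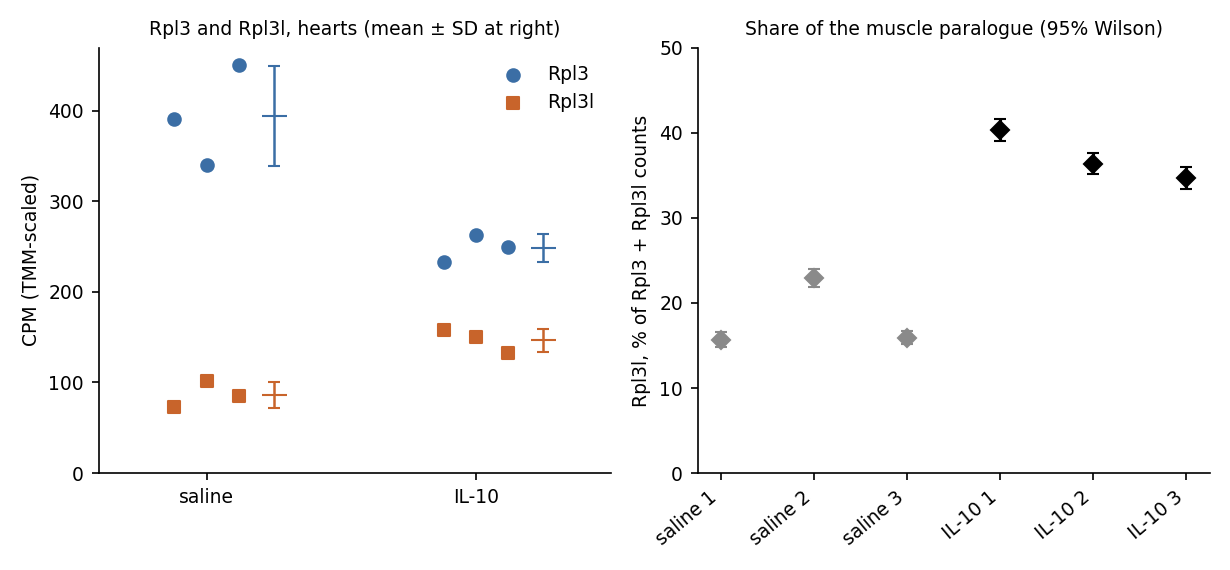
Left, CPM of Rpl3 (circles) and Rpl3l (squares) in each heart by group, with the group mean and SD (n = 3) to the right of the points. Right, Rpl3l as a percent of the counts of both genes in each heart, with 95% Wilson intervals for counting error; the saline hearts lie between 15.7% and 22.9% and the IL-10 hearts between 34.7% and 40.4%.

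The balance of the pair can be read within each heart, without any scaling between libraries. Rpl3l made up 15.7%, 22.9% and 15.9% of the counts of both genes in the saline hearts and 40.4%, 36.4% and 34.7% in the IL-10 hearts. The 95% Wilson interval of the highest saline heart ended at 24.0% and that of the lowest IL-10 heart began at 33.4%; reads carry no molecular identifiers, so the intervals cover counting error only. Saline heart 2 stood apart from the other saline hearts, with a Rpl3l share above theirs by more than counting error. With counts divided by the length of all annotated exons (3175 bases for Rpl3, 1643 for Rpl3l), the share of Rpl3l was 29.9 ± 5.70% after saline and 53.3 ± 3.11% after IL-10. Those exons include parts that the main transcripts leave out. With the length of the main coding transcript (1351 and 1375 bases), the shares were 17.9 ± 4.06% and 36.7 ± 2.92%, so which of the genes had the higher level after IL-10 depends on the length used. The mean log2 ratio of Rpl3l to Rpl3 was higher by 1.43 in the IL-10 group, and every IL-10 heart lay above every saline heart. That difference between the groups cannot depend on the length, which shifts the log2 ratio of every heart alike. An exact two-sided permutation test gave p = 0.1, the smallest that 3 against 3 allows (0.2 after Benjamini-Hochberg adjustment over the 4 such tests made).

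The fall of Rpl3 was also present relative to the rest of the ribosomal protein genes. The log2 ratio of Rpl3 counts to the summed counts of all other members was -5.66, -5.80 and -5.63 in saline hearts and -6.26, -6.27 and -6.15 in IL-10 hearts. The groups did not overlap, and the mean difference was -0.53 (exact permutation p = 0.1, the smallest possible; 0.2 adjusted over the 4 tests).

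Of the 81 members tested in hearts, Rpl3l rose and 5 fell: Rpl3, Rpl22l1, Rpsa, Rps26 and Rpl13a. Among all genes tested, 13.6% were called, 6.86% as rises and 6.7% as falls, which is to be read beside the 6 of 81 members. Not tested, for too few counts, were Rpl10l, Rpl24, Rpl36al and Rpl39l. Rpl22l1 (chromosome 3, 28805436 to 28807424, plus strand), the paralogue of the large-subunit gene Rpl22, had 166, 157 and 191 counts with saline against 72, 104 and 129 with IL-10. All IL-10 hearts were below all saline hearts, with a log2 fold change of -0.73 (SE 0.194, edgeR adjusted p = 0.0204). Rpl22 itself (chromosome 4, 152325742 to 152334071, plus strand) had 1495, 1462 and 1756 against 1690, 1608 and 1537 counts, with overlapping groups and a log2 fold change of 0.06 (edgeR adjusted p = 0.746). A stretch of 60 coding bases is shown for this pair, whose coding sequences are 70.22% identical, because the paralogue was called and its partner was not, although the difference between them was not tested. RPL22 protein is known to repress Rpl22l1 in mouse cells. It starts at coding base 37 of Rpl22 and 22 of Rpl22l1, and the 22 differing bases are in capitals.
Rpl22: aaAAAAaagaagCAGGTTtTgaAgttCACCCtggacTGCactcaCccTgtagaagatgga
Rpl22l1: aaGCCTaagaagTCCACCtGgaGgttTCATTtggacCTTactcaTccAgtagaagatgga

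The remaining falls lay closer to the threshold. Rpsa, the small-subunit protein SA that doubles as a laminin receptor, had 15212, 13157 and 19950 counts with saline against 11207, 12140 and 11676 with IL-10 (log2 -0.43, SE 0.134, edgeR adjusted p = 0.0426). Rps26, a small-subunit protein at the mRNA exit channel, had 5429, 4623 and 6729 against 3696, 4453 and 4136 counts (log2 -0.42, SE 0.130, edgeR adjusted p = 0.0432). Rpl13a, a large-subunit protein, had 223, 180 and 308 against 156, 162 and 170 counts (log2 -0.51, SE 0.160, edgeR adjusted p = 0.0445). In all of these the highest IL-10 heart, in CPM, was below the lowest saline heart. Rpl3 and Rpl3l were called under all 16 alternative settings tried, Rpl22l1 under 12, Rpsa and Rps26 under 10 and Rpl13a under 8. Leaving out saline heart 1, saline heart 3, IL-10 heart 1 or IL-10 heart 2 left 2 members called, Rpl3 and Rpl3l, and leaving out IL-10 heart 3 left 3, with Rpl22l1. Calls over all genes fell too in the fits that left 2. They were 451 rises and 561 falls without saline heart 1 and 599 and 548 without saline heart 3. Without IL-10 heart 1 they were 620 and 638, and without IL-10 heart 2, 450 and 447. With all hearts they were 941 and 919, and without IL-10 heart 3, 1082 and 886.

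**Figure D2:**
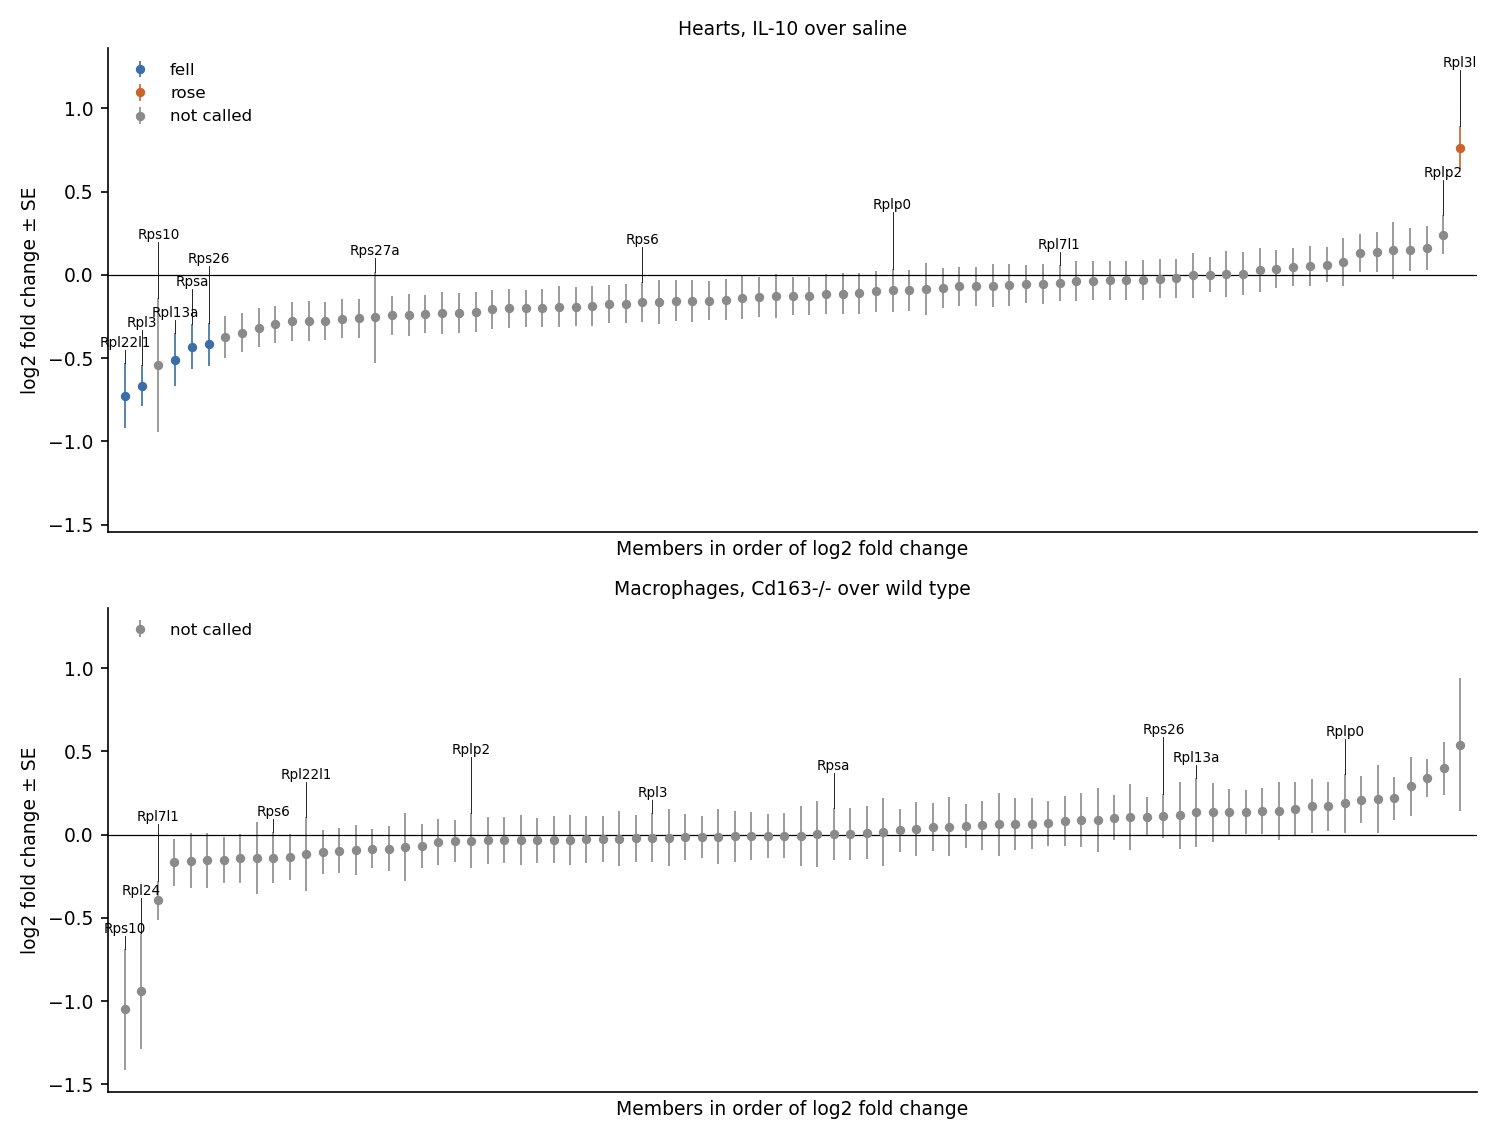
Log2 fold change with its standard error of each tested member, in order of size (a few labelled), in hearts (IL-10 over saline, 81 members) and macrophages (Cd163-/- over wild type, 82 members); colour marks members past the adjusted p of 0.05. In hearts Rpl3l stands alone at the right and 65 of 81 members lie below 0; in macrophages no member was called.

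Most other members lay slightly lower in the IL-10 hearts. The log2 fold change was below 0 for 65 of 81 tested members, against 50.9% of all genes tested, and for 64 to 73 under the other scalings. Its median was -0.13 over the members (quartiles -0.23 and -0.03) and -0.01 over all genes. It was -0.17 over the 48 large-subunit and -0.07 over the 33 small-subunit genes tested. Upper-quartile scaling and library size alone, with 71 and 73 members below 0, also moved the median of all genes, to -0.06 and -0.07. The members' medians were then -0.18 and -0.19. The groups did not overlap for 18 members, 17 of them lower after IL-10, against 31.6% of all genes (15.8% lower). Of the 17, Rpl12, Rpl28, Rpl14, Rps12, Rpl4, Rpl5, Rpl7a and Rpl35 had unadjusted p-values under 0.05 without passing the adjustment. In edgeR 15 of 81 members had an unadjusted p under 0.05, against 3877 of the 13718 genes tested. The order of libraries shows where the shift of most members lay: saline heart 3 was the highest of the 6 hearts for 48 members, IL-10 heart 2 was the highest for 23, and IL-10 hearts 3 and 1 were the lowest for 36 and 33. Without saline heart 3, 54 members were below 0 and the median was -0.06, and without IL-10 heart 3 these were 53 and -0.06. The members together took 3.32%, 3.02% and 3.61% of the counts outside mitochondrially encoded genes in saline hearts and 2.80%, 3.12% and 2.90% in IL-10 hearts. These shares overlapped, and the difference of 0.377 percentage points had an exact permutation p = 0.2 (0.267 adjusted over the 4 tests).

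The stalk that recruits elongation factors is built of RPLP0 and of the acidic proteins RPLP1 and RPLP2. Rplp2 had 843, 905 and 1223 counts with saline against 1243, 1167 and 1027 with IL-10, the highest fold change after Rpl3l, with overlapping groups (log2 0.24, SE 0.119, edgeR adjusted p = 0.195). Rplp0 (log2 -0.09) and Rplp1 (0.03) did not pass the test either. Rps6, whose protein is phosphorylated by the S6 kinases and is a common readout of mTORC1 activity, had 6860, 6014 and 8156 against 5746, 6208 and 6460 counts (log2 -0.16, edgeR adjusted p = 0.409). Among the other largest positive values were Rps14 (0.16), Rps2 (0.15) and Rps27rt (0.15), none called. Rps27a, which encodes a fusion of ubiquitin and a small-subunit protein, had 2306, 1453 and 2062 counts with saline against 717, 2058 and 1996 with IL-10. IL-10 heart 1 was far below the other 5 hearts, and the log2 fold change of -0.26 became 0.11 without it.

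No other paralogue was called in hearts. Rpl7l1 held 11.1% to 13.6% of the counts of Rpl7 and Rpl7l1, and its log2 fold change was -0.05, the same to 2 decimals as that of Rpl7. Rps27l (log2 -0.08), a target of p53, held 24.5% to 35.3% of the pair with Rps27 (0.03). Rps27rt held 14.9% to 19.1% of the counts with Rps27, but the annotated coding sequences of that pair are identical over all 252 bases, so their counts cannot be told apart by coding reads. Rpl39l, a form known from male germ cells, had 0 to 4 counts in each heart and Rpl36al 1 to 6. Rpl10l, another testis gene, had none, which with a floor of 3 counts limits it to at most 0.192 to 0.220 CPM per heart.

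The muscle form of a second translation gene, in a pair listed with earlier results of these data known, moved the way Rpl3l did. Eef1a1 and Eef1a2 encode the general and the muscle and nerve forms of elongation factor 1A, which carries aminoacyl-tRNA to the ribosome. Eef1a2 had 6500, 6630 and 8276 counts in saline and 13726, 10891 and 12007 in IL-10 hearts (496.4 ± 29.5 against 863.9 ± 75.8 CPM, log2 0.80, SE 0.122, edgeR adjusted p = 0.000576). Eef1a1 had 26864, 23671 and 38118 against 19183, 19247 and 23000 counts (log2 -0.49, SE 0.149, edgeR adjusted p = 0.0367). Eef1a2 thus held 19.5%, 21.9% and 17.8% of the counts of both after saline and 41.7%, 36.1% and 34.3% after IL-10. Eef1a2 was called under all 16 alternatives, while the fall of Eef1a1 lost its call when saline heart 1, saline heart 3, IL-10 heart 1 or IL-10 heart 2 was left out.

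Genes that build, regulate or work with the ribosome were read from lists chosen by function, with earlier results of these data known. Of 36 ribosome biogenesis genes 5 fell and none rose in hearts (median log2 fold change -0.18; 6.7% of all genes fell and 6.86% rose): Heatr1 (-0.70), a pre-rRNA processing factor, Polr1e (-0.59), a subunit of RNA polymerase I, Nolc1 (-0.52) and Nhp2 (-0.48), nucleolar proteins of snoRNP assembly and pseudouridylation, and Eif6. Leaving out a heart gave 3 to 7 calls in this list, 3 without saline heart 1, saline heart 3, IL-10 heart 1 or IL-10 heart 2. Calls over all genes then ranged from 450 to 1082 rises and from 447 to 1012 falls. Of 20 translation factors and other genes with TOP mRNAs, Eef1a1 and the RNA-binding protein gene Hnrnpa1 (-0.46) fell and Eif3f (0.36) rose, with a median of -0.07; no gene of this list was called without saline heart 1 or IL-10 heart 1, and with upper-quartile scaling or library size alone it had 3 falls and no rise. Of 22 genes of mTORC1 signalling and translation control 5 rose and none fell (median 0.17). These were Deptor (0.92) and Ddit4 (1.40), inhibitors of the pathway, Eif4ebp2 (0.42), a repressor of the cap-binding protein, Rptor (0.44), the defining subunit of mTORC1, and Sesn1, an amino acid sensor that restrains it. Leaving out a heart gave 2 to 5 calls in this list, 2 without saline heart 1 or IL-10 heart 1, and the list had 4 rises and 1 fall with upper-quartile scaling and 2 rises and 1 fall with library size alone. Of 77 mitochondrial ribosomal protein genes, which serve the separate ribosome of the mitochondrion, Mrps18b fell (-0.76) and Mrpl9 (0.41) and Mrps24 (0.48) rose, with a median of 0.07. The rises in that list numbered 0 to 8 when a heart was left out, with 0 without saline heart 1, IL-10 heart 1 or IL-10 heart 2 and 8 without IL-10 heart 3, and were 1 with upper-quartile scaling and 0 with library size alone.

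Cell type markers moved with these groups as well, and in bulk tissue fewer cells of a type and less RNA per cell cannot be told apart. Of 9 cardiomyocyte markers Myl3 rose and Actc1 fell, none was at 0, and their summed level was 39216 to 47603 CPM in saline and 34132 to 39989 in IL-10 hearts. These ranges overlapped, and the median log2 fold change over the 9 was 0.16. Skeletal muscle, the other tissue with Rpl3l, had 3 of 9 markers at 0 in every heart (Myh1, Myh2 and Myh4) and, of 3 tested, Tnnt3 fell and none rose. The summed level was 880 to 978 CPM in saline and 972 to 1290 in IL-10 hearts, nearly all of it from Ckm (log2 0.28, not called), which heart muscle also expresses. Over all genes tested 6.86% rose and 6.7% fell. All 8 markers of dividing cells fell, from a summed 54.7 to 70.9 CPM to 9.03 to 10.9, all 5 tested red blood cell markers fell, and of 7 fibroblast markers 3 fell and 1 rose (2451 to 3020 CPM against 2096 to 2626). What part these cells had in the falls of Rpl3, Rpl22l1 and the biogenesis genes was not tested.

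In macrophages the loss of Cd163 came with no call among 82 tested members (edgeR's quasi-likelihood test), while 26.4% of all 13861 genes tested were called, 13.1% as rises and 13.3% as falls. The DESeq2 Wald test and limma-voom called none either, and 5 members had an unadjusted p under 0.05 in edgeR, against 5711 of the 13861 genes. The median log2 fold change was -0.01, with 42 of 82 members below 0 against 49.1% of all genes. Single libraries turned this: without knockout 1, 67 members were below 0 (median -0.13), and without knockout 2, 12 were (median 0.13). With upper-quartile scaling or library size alone 12 and 3 members were below 0, while the median of all genes moved to 0.13 and 0.19. Knockout and wild-type libraries did not overlap for 16 members, 9 higher and 7 lower, against 69.4% of all genes. The spread between the knockout cultures was wide: knockout 1 was the highest of the 4 libraries for 66 members and knockout 2 the lowest for 58. The members took 1.90% and 1.90% of counts outside mitochondrial genes in wild type and 2.38% and 1.99% in the knockout. The exact permutation p was 0.333, the smallest that 2 against 2 allows.

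Nearest to a call in macrophages was Rpl7l1. Rpl7l1, a paralogue of Rpl7 that works in ribosome assembly, had 1660 and 1743 counts in wild type and 1610 and 1427 in the knockout, 104.7 ± 8.59 against 79.7 ± 0.658 CPM (log2 -0.39, SE 0.117, edgeR adjusted p = 0.0558). Rps10 had 45 and 41 against 19 and 29 counts (log2 -1.05), but the genes named as its pseudogenes had 965 and 937 against 1406 and 1103, and with those counts added the log2 fold change was 0.13. Rpl24 had 28 and 23 against 17 and 14 counts (log2 -0.94, adjusted p = 0.096 by edgeR). Of the remaining largest values, Rps27rt was at 0.29, Rpl28 at 0.22, Rps21 at 0.22, Rpl18 at -0.16 and Rps27a at -0.15.

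Rpl3 was not called between the macrophage genotypes, with 8583 and 8535 counts in wild type and 11063 and 8780 in the knockout (526.2 ± 23.0 against 519.5 ± 44.8 CPM, log2 -0.02, SE 0.148, turning positive with upper-quartile scaling or library size alone). Rpl3l had 5, 5, 1 and 4 counts and was not tested. Its share of the counts of the pair was at most 0.0585%, with an upper 95% Wilson limit of 0.137%. Cardiomyocyte markers together reached 30.5 to 59.5 CPM in these cultures. The pair Rpl22 and Rpl22l1 gave overlapping groups, with Rpl22l1 at 251 and 253 against 344 and 206 counts (log2 -0.11) and Rpl22 at 0.11. Among the stalk genes and Rps6 the log2 fold changes were 0.19 for Rplp0, 0.14 for Rplp1, -0.03 for Rplp2 and -0.14 for Rps6, none called.

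Ribosome biogenesis genes act in the assembly of the ribosome. Of 36 such genes 23 fell and none rose in knockout macrophages, with a median log2 fold change of -0.62 (0.01 over all genes, of which 13.3% fell). Rrs1, a factor of 60S assembly, fell from 82.1 ± 1.70 to 25.4 ± 0.237 CPM (log2 -1.69, SE 0.110, edgeR adjusted p = 0.000785). Eif6 (-1.14), which keeps new 60S subunits from joining too early, Pno1 (-0.94), a factor of 40S maturation, and Utp20 (-0.88), of the small-subunit processome, fell too. The count depends on the knockout libraries: fewer of the 36, and fewer of all genes, were called with a single knockout library left. The list median was then -0.56 without knockout 1 and -0.75 without knockout 2. Of 22 mTORC1 and translation control genes 6 rose and 5 fell (median -0.07; 13.1% and 13.3% of all genes), with Eef2k (2.07), the kinase that inhibits elongation factor 2, Pdcd4 (2.03), an inhibitor of the helicase eIF4A, and Sesn1 (2.21) higher, and Larp1 (-1.12), the TOP mRNA binding protein, lower. The median of this list was -0.03 without knockout 1 and -0.13 without knockout 2. Of 77 mitochondrial ribosomal protein genes 12 fell and none rose (median -0.20), a share near the 13.3% of all genes that fell. Among the falls were Mrpl52 (-1.16), Mrpl39 (-0.83), Mrpl12 (-0.68) and Mrps18b (-0.79). The mitochondrial list had 7 falls with upper-quartile scaling, and 5 falls and 1 rise with library size alone. Its median was -0.21 without knockout 1 and -0.21 without knockout 2. Of 20 genes with TOP mRNAs 1 rose, Eif4b (0.60), which was not called without either knockout library, and edgeR called neither form of elongation factor 1A. Eef1a2 had 102 and 76 counts in wild type and 333 and 143 in the knockout (log2 1.17, edgeR adjusted p = 0.0651), and 1 gene of that pair was called as a rise by the DESeq2 Wald test and by edgeR with library size alone, without a low-count filter, with the replicate block or without knockout 2.

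**Figure D3:**
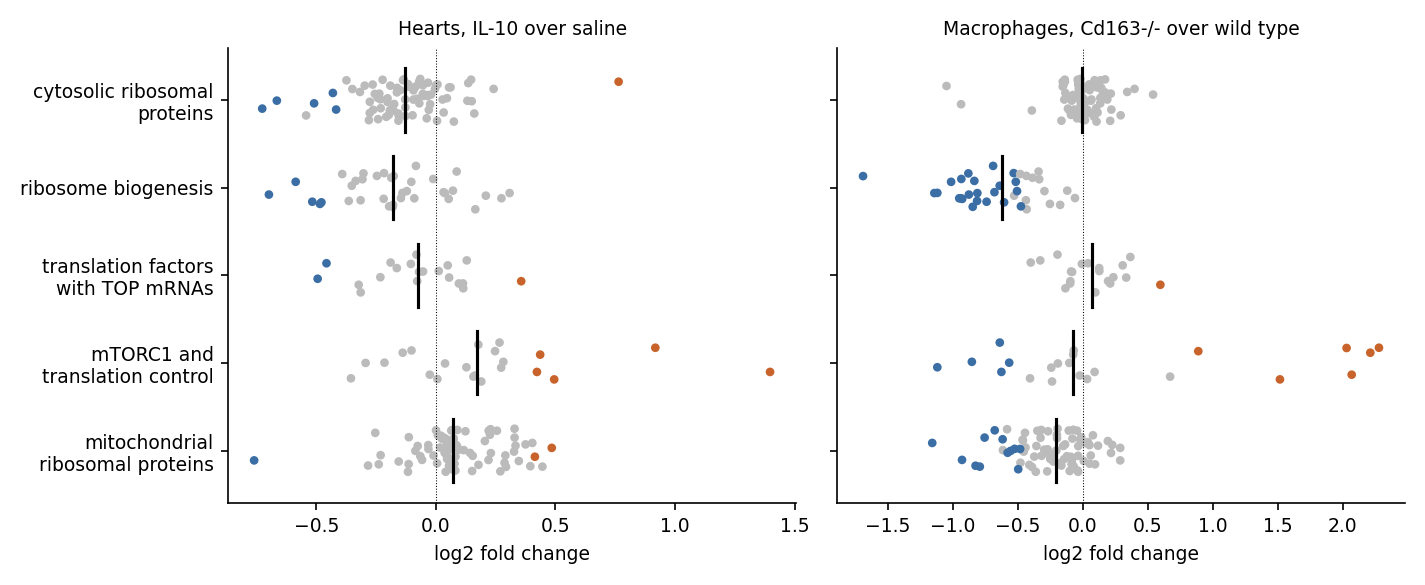
Log2 fold change of each tested gene of 5 lists in hearts (IL-10 over saline) and macrophages (Cd163-/- over wild type); each point is a gene, orange and blue mark rises and falls past the adjusted p of 0.05, and black bars are list medians. In macrophages the biogenesis genes lie left of 0 with a median of -0.62 while the ribosomal protein genes gather around 0.

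The macrophage cultures also differed in other cells. Of 8 mesothelial markers 5 rose in the knockout and none was at 0 in all libraries, with a summed level of 95.7 to 149.7 CPM in wild type and 299.7 to 380.4 in the knockout. Of 6 tested fibroblast markers 4 rose and 1 fell (1644 to 2426 against 3678 to 4845 CPM). Over all genes tested 13.1% rose and 13.3% fell. Of 10 macrophage markers 3 rose and 1 fell, and together they summed to 25593 to 31126 CPM in wild type and 25352 to 26511 in the knockout. The part of these cells in the lower biogenesis genes was not tested.

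Levels per length let the members be compared with each other and across the tables. Counts were divided by exon length and given per M of the sum over genes outside the mitochondrial genome, separately for each library. Heart and macrophage levels of the 84 members with counts in both followed each other (Spearman's rho 0.965, Pearson's r 0.888 on log2 levels, across genes of the same libraries, as a description). The order was led in hearts by Rps15 (2982), Rplp0 (2726), Rplp1 (2663), Rps3a1 (2322) and Rps2 (2092), and in macrophages by Rplp1 (1876), Rps3a1 (1796), Rplp0 (1726), Rps15 (1614) and Rpl19 (1448). Neighbours at the top overlapped over the hearts, from 2688 to 3529 for Rps15 and from 2498 to 3254 for Rplp0, while both lay above Rps3a1 (1998 to 2492) and Rps2 (1740 to 2307). In macrophages Rpl19 (1375 to 1565) lay below Rplp1 (1584 to 2272) and Rps3a1 (1658 to 2049). The order depends on the length used: per transcript length Rps2 came first in hearts and Rps3a1 in rank 14, and in macrophages Rpl10 came first, from rank 10. Levels of 80 of the 84 members lay within 2-fold between hearts and macrophages. The exceptions were Rpl3l, at 327.5 in hearts and 0.457 in macrophages, Rpl36, at 1173 and 513.5, Rpl36al and Rpl39l. Rpl3, by contrast, was at 471.6 and 574.8, in rank 41 and rank 24 of the members. Tissue, culture and treatment differ together between the tables and cannot be told apart.

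**Figure D4:**
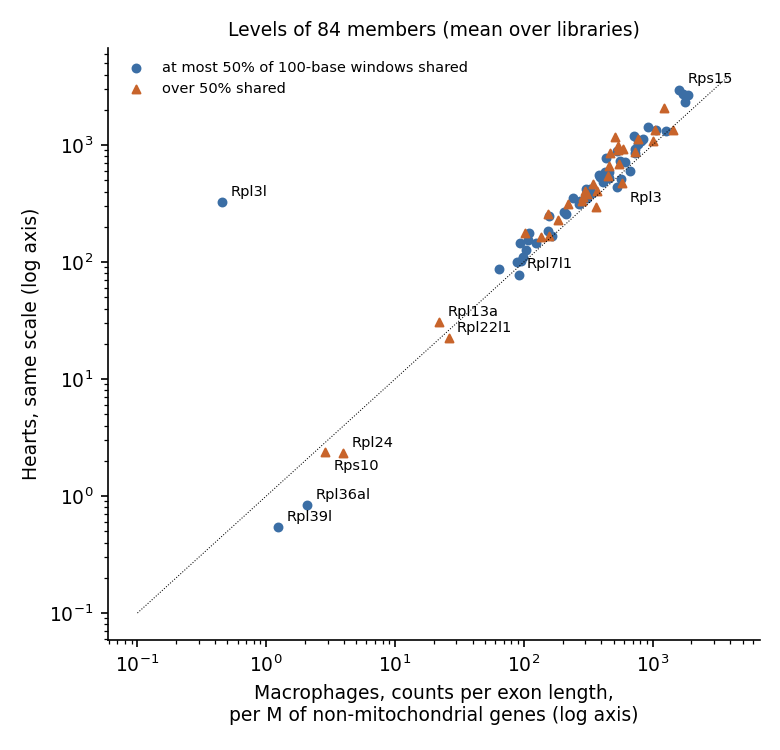
Level of each of 84 members per exon length in hearts (vertical) and macrophages (horizontal), as means over the libraries on log axes, with the dotted line marking equal levels; triangles are members with over 50% of their 100-base windows in transcripts of other genes. Rpl3l lies far above the line, and 80 of the 84 members lie within 2-fold of it.

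At the bottom of the order were genes of core ribosomal proteins, beside the paralogues Rpl10l, Rpl39l and Rpl36al. Rps10 was at 2.39 and Rpl24 at 2.33 in hearts, against a median of 434.7 over the members, and at 2.88 and 3.93 in macrophages, against 367.2. Rps10 had 9 to 25 counts per heart while the genes named as its pseudogenes had 682 to 942, and Rpl24 had 1 to 16. Of the exon bases of Rps10, 28.73% also belong to the annotated genes Gm15420 and RPS10-NUDT3, and of those of Rpl24, 46.99% to Gm28037. Rpl13a, next among the core members at 30.8 in hearts, shares 35.38% with other genes. The paralogue Rpl36al shares 24.54% with Gm49383. The overlapping genes Gm15420, RPS10-NUDT3, Gm28037, Gm45713 (on Rpl13a) and Gm49383 had 0 counts in both tables. Of all members 12 had over 20% of their exon bases in another gene, and Rpl23a (62.34%) and Rpl35 (66.16%) were not low. Whether the counting of overlapping or near-identical genes set these low values was not tested, and the fall of Rpl13a in hearts is a change in the reads so assigned.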

How the data were processed

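The authors deposited raw counts per gene as 2 tables, one of 6 hearts and one of 4 macrophage cultures. The submitters' processing notes name HISAT2 2.2.1 and featureCounts, with settings not given in the sources used here, and list GRCm39 as well as mm10 without saying which build was counted. Per the labels' protocols the kit was NEBNext Ultra RNA, which does not mark strand, and the extraction text names livers. GENCODE M21 named 52081 of 55357 identifiers. Totals were 13.5 to 14.9 M counts per heart, with 33.7% to 39.4% mitochondrially encoded, and 16.7 to 18.6 M per macrophage library (2.43% to 3.12%).

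Each table was fitted alone in R 4.3.3 with edgeR 4.0.16: filterByExpr (minimum count 10, total 15), TMM scaling, the quasi-likelihood test, and Benjamini-Hochberg adjustment over all tested genes, with a call at an adjusted p under 0.05. SE is the absolute log2 fold change over the square root of F. Ratios and shares were tested by exact permutation over samples. Coding sequences were aligned with Biopython 1.88. Alternatives used DESeq2 1.42.0 and limma 3.58.1, other scalings and filters, the replicate block, added pseudogene counts and left-out libraries; a lone macrophage library was then assumed to vary like the other group. Tested on simulated data with 200 changed genes, the heart design (13718 genes) recovered 82% of the 2-fold changes and 95% of the 4-fold ones, with 4 false calls. The macrophage design (13861 genes) recovered 58% and 94%, also with 4 false calls. The simulated spread followed the trend over all genes, so spread particular to a gene was left out. Changes smaller than 2-fold were not simulated.

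The members and gene lists were chosen with earlier results of these data known. Members named are the paralogue pairs, stalk genes, Rps6, all called members, the 5 largest rises and falls (mean 1 CPM or more) and the 5 highest and lowest per length, and up to 4 genes per list by smallest p; Eif6 in hearts, Sesn1 in hearts, Rps27a, Rpl36, Rpl23a, Rpl35 and the 8 members with an unadjusted p under 0.05 were named after their values were seen. A few genes that fall under this rule are not reported here.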

Additional observations from a re-analysis of the deposited data

How the results depend on the processing

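The calls of Rpl3 and Rpl3l in hearts kept their direction and side of the threshold under all 16 alternatives, with log2 fold changes from -0.76 to -0.55 (edgeR, DESeq2 or limma-voom adjusted p from 3.80e-06 to 0.0164) and from 0.66 to 0.89 (4.23e-08 to 0.0104). The number of members called in hearts, 6, became 10 with upper-quartile scaling (1 rise and 9 falls) and 3 with the replicate number as a block, and ranged from 2 to 7 when each heart was left out. With a heart left out, calls over all genes ranged from 450 to 1082 rises and from 447 to 1012 falls. In macrophages the number of members called was 0 and became 1 with upper-quartile scaling, 2 with library size alone and 1 without a low-count filter (Rps10), and ranged from 0 to 1 when each library was left out, with Rpl7l1 called without wild type 1. Those scalings moved the median of all macrophage genes to 0.13 and 0.19 from 0.01, and the members' median to 0.11 and 0.17, so members stayed near the median of all genes. Calls over all genes split into 941 rises and 919 falls in hearts (716 and 1120 with upper-quartile scaling, 549 and 993 with library size alone) and 1817 and 1846 in macrophages (2310 and 1403, 2665 and 1220). The sign turned for Rps27a without IL-10 heart 1 (0.11, with -0.51 the lowest value on leaving out a heart), for Rps10 in macrophages with pseudogene counts added (0.13), and for Rpl3 in macrophages with upper-quartile scaling (0.10), library size alone (0.16), without wild type 2 (0.022) and without knockout 2 (0.0564, against -0.108 without knockout 1). The cause was not tested. The median level of the members in hearts, 445.2 as a mean over hearts, was 646.2 with transcript length in place of exon length, an alternative chosen after the data were seen.

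Correlations of deviations between heart libraries of the same number were -0.21, 0.06 and -0.01. Heart libraries of different number gave -0.14 to 0.17. The macrophage value was -0.13, which cannot test pairing, since with 2 libraries a group the deviations mirror each other. The labels do not say that equal numbers mark a shared batch, and this check cannot settle whether they do. With the replicate block 3 members were called in hearts (Rpl3, Rpl3l and Rpl22l1) and 0 in macrophages. Shares and ratios kept their direction under every alternative run: leaving out a heart gave 1.31 to 1.65 for the log2 ratio of Rpl3l to Rpl3, -0.58 to -0.50 for Rpl3 over the other members, and -0.527 to -0.232 percentage points for the members' share of counts, and leaving out a macrophage library 0.0950 to 0.479. Depth limits the least abundant members: 3 counts are 0.192 to 0.220 CPM in hearts and 0.149 to 0.191 CPM in macrophages.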
